A study of Mus musculus with 3 samples.

Results

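Lcn2 and 7 genes of acute phase proteins (Lbp, Orm1, Hp, Saa3, Serpina3n, C3 and Cfb) were followed across 3 mouse arrays by the gene symbols of the platform's probe table. Of these 8 genes, 7 had a probe set, 1 each, among the 19938 genes measured. C3 was not listed in that table and was not analysed here. The 8 were picked with their values on these arrays in view, so what follows describes them and tests nothing. The study, on brown adipocytes made by direct conversion, had 3 samples of total RNA: mouse fibroblasts, cells named DiBA, and a sample named BA. The labels give brown adipose tissue as the source of BA but also describe it as cultured cells, and they give no strain, age, treatment or conversion method for any sample. Each group was 1 array, so no spread between replicates and no p-value can be given.

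The acute phase response is the change in plasma proteins that follows infection or injury. Interleukin-6, interleukin-1 and tumour necrosis factor drive it, acting through STAT3, NF-kappaB and C/EBP factors on genes best known in the liver. Fat cells also make several of these proteins: lipocalin 2, haptoglobin, orosomucoid and serum amyloid A3 are secreted by adipose tissue, and lipocalin 2 starves bacteria of iron by binding their siderophores.

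Values are probe set intensities on a linear scale, as deposited. Differences are on the log2(intensity + 1) scale, and folds are taken from them. Calls were made at differences of 2-fold or more where the brighter array of the pair reached 69.2, the median of all probe sets. Below that level background sets much of a value, and a fold against such an array is imprecise. The sample labels were checked through markers: 8 of 8 adipocyte genes and 8 of 8 brown adipocyte genes were called higher than fibroblasts in DiBA and in BA, with 6 of the brown ones left when low values were raised to 69.2. Of 9 fibroblast genes, 5 were called lower and 2 higher in DiBA, against 6 and 2 in BA. Endothelial (8 of 8), skeletal muscle (8 of 8) and macrophage (8 of 10) markers were also called higher in DiBA than in fibroblasts, as given below. The check therefore does not settle which cells the DiBA sample held.

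Stretches of 250 bases before the transcription start were available for 4 of the 8 genes, C3 among them. Shown are those of Lcn2, high in DiBA alone, Serpina3n, the only shared member with a stretch, and Saa3, the dimmest member. They are RefSeq sequences of build GRCm38.p6, upstream of the annotated gene, 5′ to 3′ in the gene's direction: Lcn2 at chr2:32387740-32387989 on the minus strand, Serpina3n at chr12:104406458-104406707 on the plus strand and Saa3 at chr7:46715677-46715926 on the minus strand. Capitals mark matches to a C/EBP motif.
Lcn2: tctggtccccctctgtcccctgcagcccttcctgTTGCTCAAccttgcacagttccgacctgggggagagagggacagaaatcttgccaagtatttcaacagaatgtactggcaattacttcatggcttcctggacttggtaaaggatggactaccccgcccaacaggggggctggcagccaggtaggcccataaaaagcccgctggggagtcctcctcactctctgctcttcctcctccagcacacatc
Serpina3n: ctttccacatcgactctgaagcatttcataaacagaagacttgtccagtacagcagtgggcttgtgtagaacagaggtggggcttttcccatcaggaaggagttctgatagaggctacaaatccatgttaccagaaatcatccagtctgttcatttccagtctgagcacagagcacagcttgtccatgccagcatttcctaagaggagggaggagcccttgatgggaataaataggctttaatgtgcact
Saa3: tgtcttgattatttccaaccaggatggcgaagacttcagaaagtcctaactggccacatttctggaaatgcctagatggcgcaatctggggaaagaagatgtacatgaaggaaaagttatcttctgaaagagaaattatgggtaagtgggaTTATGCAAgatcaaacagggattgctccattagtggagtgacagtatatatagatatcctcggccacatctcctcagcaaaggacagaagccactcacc

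Motifs were searched on both strands as TTGCNNAA for C/EBP, GGGA and TCC with any 3 bases between them for kappaB, TTCNNNGAA for STAT and TATAAA for the TATA box. The Lcn2 stretch held 1 C/EBP match, TTGCTCAA, at bases 216 to 209 before the start, and the Saa3 stretch held 1 on the other strand, TTATGCAA, at bases 99 to 92. The Serpina3n stretch held 0 matches to any of the 4 motifs, and the other 2 stretches held 0 matches beside the C/EBP ones. Among all 32851 windows of this length, 9.56% held the C/EBP motif, 3.86% the kappaB motif, 7.02% the STAT motif and 12.4% the TATA motif. The C3 stretch, not shown since C3 had no value here, held 1 C/EBP match. A match describes letters only, and with 1 gene shown for each pattern the matches do not describe the patterns.

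Lcn2 was the 1 member high in DiBA alone. Its intensity was 31.95 in fibroblasts, 3472 in DiBA and 58.7 in BA. Only the DiBA array was above 69.2, and the other 2 arrays lay near each other beneath it. DiBA was 105-fold above fibroblasts (6.72, log2) and 58.2-fold above BA (5.86). BA differed from fibroblasts by 1.81-fold at intensities where no call was made. With every intensity under 69.2 raised to it, Lcn2 in DiBA was 49.5-fold above both other arrays.

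In DiBA minus BA, the Lcn2 difference ranked 1 of 11076 genes, and in DiBA minus fibroblasts it ranked 17 of 11621. Being called higher in DiBA than in each of the other arrays, without a call between those, was rare: 17 of 11699 genes, or 0.145%, had this pattern. Lcn2 was chosen for it, so the share is background and not evidence. In bulk RNA, fewer cells that make a transcript and less of it per cell cannot be told apart.

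**Figure D1:**
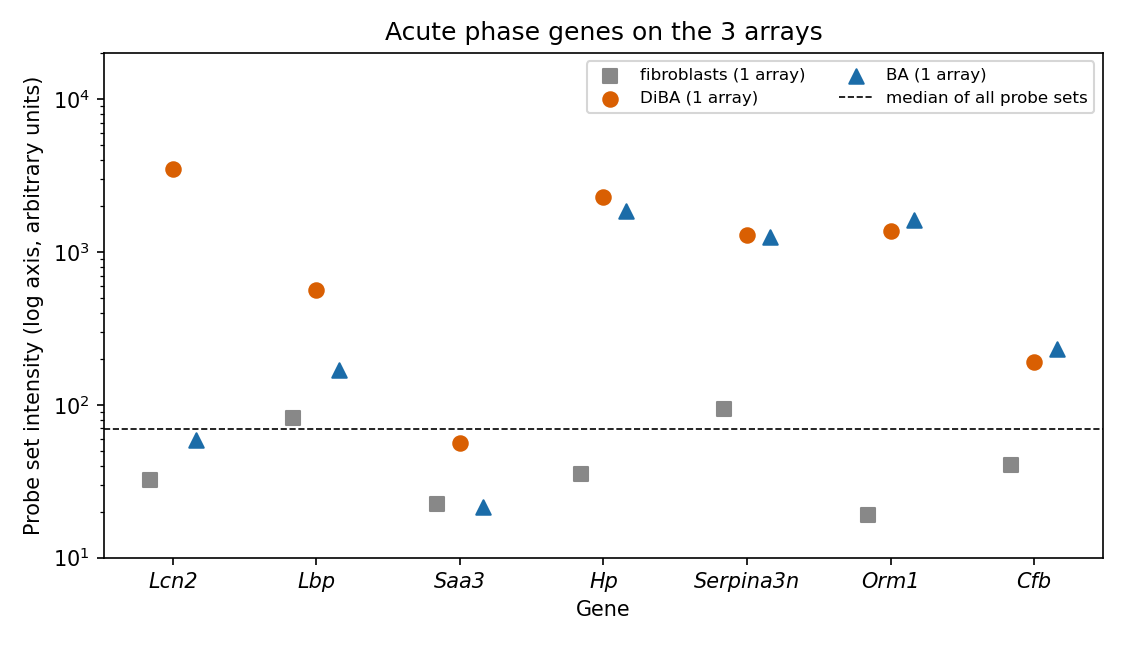
Probe set intensity (log axis) of the 7 measured genes on the fibroblast (grey squares), DiBA (orange circles) and BA (blue triangles) arrays, 1 array each, with a dashed line at the median of all probe sets, 69.2. Lcn2 is at 3472 in DiBA with both other arrays under the line, Lbp steps from 81.5 to 169 to 565, Saa3 is under the line throughout, and the other 4 genes have DiBA and BA close together and far above fibroblasts.

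Lbp encodes the plasma protein that binds bacterial lipopolysaccharide and hands it to CD14. Its intensity was 81.5 in fibroblasts, 565 in DiBA and 169 in BA, so all 3 arrays were above the median and the order was graded. DiBA was 6.86-fold above fibroblasts (2.78) and 3.32-fold above BA (1.73). BA was 2.06-fold above fibroblasts, just past the threshold, and 0.93 (log2), short of it, when 16 was added to each intensity in place of 1. Lbp therefore stood between the patterns: called higher in both samples and higher in DiBA than in BA, as were 3 genes in all, or 0.0256%. The others, Prdm16 and Cebpb, were named after their values were seen. Lbp was picked with its values in view, so this share too is background and not evidence.

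Saa3 encodes a serum amyloid A made outside the liver, in adipocytes and macrophages among others. Its intensity was 22.5 in fibroblasts, 55.8 in DiBA and 21.3 in BA. DiBA was the highest array, at 2.42 times fibroblasts and 2.55 times BA on the log2(intensity + 1) scale, but all 3 values were below 69.2 and no call was made. With the level filter left out, Saa3 would be the second member high in DiBA alone. With low values raised to 69.2 its differences were 0.

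The other 4 members were shared by DiBA and BA. Orm1, which encodes the drug-binding plasma glycoprotein orosomucoid, had an intensity of 19.0 in fibroblasts, 1375 in DiBA and 1621 in BA. That is 68.8-fold above fibroblasts in DiBA (6.10) and 81.1-fold in BA (6.34), with BA 1.18-fold above DiBA. With low values raised to 69.2 the folds over fibroblasts were 19.6 and 23.1.

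Hp encodes haptoglobin, which captures free haemoglobin. Its intensity was 35.3 in fibroblasts, 2283 in DiBA and 1840 in BA. DiBA was 62.9-fold (5.97) and BA 50.7-fold (5.66) above fibroblasts, or 32.6-fold and 26.2-fold with low values raised, and DiBA was 1.24-fold above BA. Hp was the shared member with the widest excess in DiBA over BA, under the threshold of 2-fold.

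Serpina3n encodes a secreted serine protease inhibitor related to human antichymotrypsin. Its intensity was 93.2 in fibroblasts, 1280 in DiBA and 1245 in BA, with all 3 arrays above 69.2. DiBA was 13.6-fold (3.77) and BA 13.2-fold (3.73) above fibroblasts, and DiBA and BA differed by 1.03-fold. That last difference was 0.04 as deposited and -0.04 when each array was centred on its median, so it has no settled sign.

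Cfb encodes complement factor B, the protease component of the alternative pathway. Its intensity was 40.4 in fibroblasts, 191 in DiBA and 231 in BA. DiBA was 4.65-fold (2.22) and BA 5.60-fold (2.49) above fibroblasts, or 2.74-fold and 3.30-fold with low values raised, and BA was 1.20-fold above DiBA. Of the 4 shared members, Cfb had the smallest folds over fibroblasts.

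By count, 6 of the 7 measured members were called higher in DiBA than in fibroblasts, where 14.7% of the 11621 genes tested were. In BA, 5 were called higher than fibroblasts, against 16.3% of 11663 genes. Between DiBA and BA, 2 were called higher in DiBA, Lcn2 and Lbp, against 1.75% of 11076 genes, and 0 lower, as for 0% of all genes. The pattern shared by DiBA and BA held for 4 members and for 14.1% of the 11699 genes above the level in any comparison. These contrasts chose the members, and the comparisons share arrays, so the counts only state what was chosen. The median over the 7 measured members was 3.77 for DiBA minus fibroblasts, 2.49 for BA minus fibroblasts and 0.31 for DiBA minus BA, and the median over all genes tested was 0 in each.

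**Figure D2:**
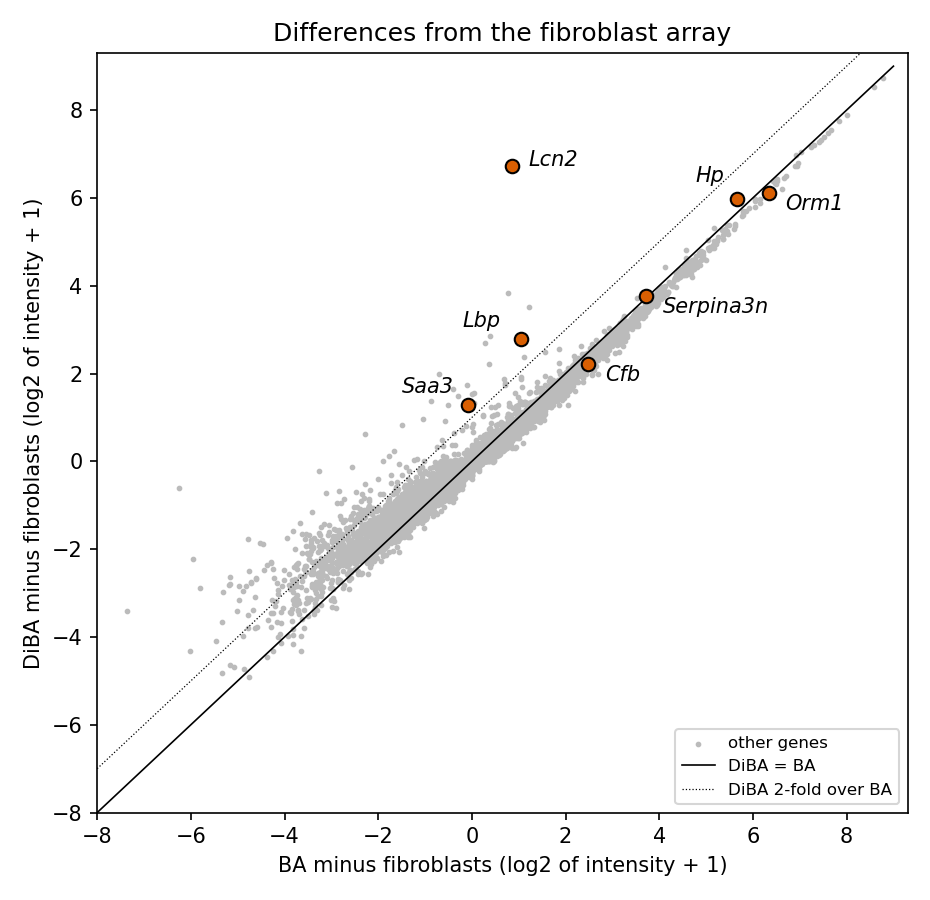
Grey points are genes at or above 69.2 on at least 1 array and orange points the 7 measured members, Saa3 included although it lies below 69.2 throughout, each with its difference from fibroblasts in BA (x axis) and in DiBA (y axis), both log2 of intensity + 1 and both using the same fibroblast array. The solid line marks equal DiBA and BA, the dotted line 2-fold more in DiBA. Orm1, Hp, Serpina3n and Cfb (orange) lie along the solid line, while Lcn2 at 6.72 against 0.86 lies far above it, with Lbp and Saa3 nearer to it.

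Among the shared members, DiBA could lie short of BA or beyond it. The position of DiBA was taken on the linear scale, with 0 at the fibroblast value and 1 at the BA value. Over the 1897 genes called higher in BA than in fibroblasts the median position was 0.84, with 5th and 95th percentiles of 0.64 and 1.01, and 103 genes (5.43%) had DiBA above BA. Cfb at 0.79 and Orm1 at 0.85 lay near that median. Serpina3n at 1.03 and Hp at 1.25 lay past BA, with 95.9% and 98.6% of these genes below them. Lbp at 5.51 ranked 2 of the 1897, after the regulator gene Prdm16 at 7.72. The Y-linked genes Eif2s3y, Kdm5d and Uty were also among the 1897, at 0.85, 0.89 and 0.79. Whether the fibroblasts differed in sex from the other samples, and what this adds to folds over fibroblasts, was not tested. The 1897 genes were selected for their BA value, which can pull positions down, by an amount that was not tested. With each array scaled to one median 53 genes (2.79%) had DiBA above BA, Serpina3n fell to 0.97 and Hp stood at 1.18.

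**Figure D3:**
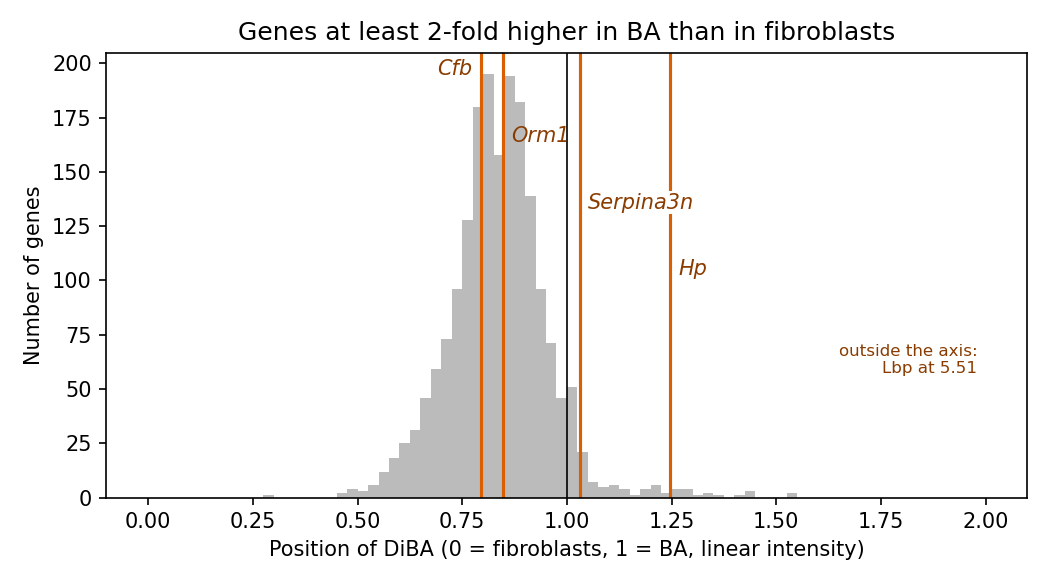
Number of genes (y axis) by the position of DiBA between fibroblasts (0) and BA (1) in linear intensity (x axis), for the genes called higher in BA. The axis ends at 2, which leaves out 7 genes, Lbp at 5.51 among them. Orange lines mark Cfb and Orm1 in the body of the distribution and Serpina3n and Hp to the right of 1, where the black line marks a DiBA value equal to BA.

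The other 16 genes high in DiBA alone give the company of Lcn2. The 11 with the highest DiBA minus BA differences after Lcn2 were Mmp9, a gelatinase whose complex with lipocalin 2 is known for the human proteins, at 3.07 (log2), Pi15 at 2.70, Atp6v0d2, a proton pump subunit prominent in osteoclasts, at 2.47, Fgl1, a secreted fibrinogen-like protein, at 2.41, Hpse2 at 2.25, Nptx1 at 2.04, Slfn4 at 1.86, Mmp12, the macrophage elastase, at 1.84, Cntn1 and Sned1 at 1.79, and Tgm1 at 1.53. Mmp9 had an intensity of 93.7 in fibroblasts, 1351 in DiBA and 160 in BA, so DiBA was 14.3-fold and 8.41-fold above them. Fgl1 had intensities of 23.9, 160 and 29.2 in the same order. Of the 16, 12 lay under 69.2 in both fibroblasts and BA, as Fgl1 did. The BA value was below 69.2 for 9 of the 11, so their order rests in part on background: with low values raised to 69.2, Mmp9 stayed at 3.07 and was followed by Sned1 at 1.79, Atp6v0d2 at 1.57, Nptx1 at 1.53 and Pi15 at 1.49, Cntn1 fell to 0.53, and the class held 13 genes.

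The nearest patterns to Lcn2 were sought as the smallest distance in the pair of differences DiBA minus fibroblasts and DiBA minus BA, over the 3 arrays and 11238 other genes. The 6 nearest were Mmp9 at a distance of 4.01 (log2), Prdm16 at 4.81, Atp6v0d2 at 5.15, Fgl1 at 5.31, and Retnla and Hp at 5.60. Hp and Retnla are near through DiBA minus fibroblasts, being shared with BA at 0.31 and 0.32 in DiBA minus BA. These distances use Lcn2 values below 69.2. With low values raised to it, Mmp9 was nearest at 3.12 and Prdm16 next at 3.96, followed by Lbp at 4.83, Hp at 5.35, Cebpb at 5.44 and Srgn at 5.49, so Mmp9, Prdm16 and Hp were among the 6 either way.

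Relatives of the members could share probe sequence, so their values are given beside them. Orm3 had intensities of 12.8 in fibroblasts, 192 in DiBA and 249 in BA, 14.0-fold and 18.1-fold above fibroblasts, or 2.76-fold and 3.56-fold with low values raised to 69.2. Orm2 read 65.7, 101 and 101, a difference of 0.62 in both. How far the Orm probe sets read each other's transcripts was not tested. Saa1, Saa2 and Saa4 lay at 15.7 or below on every array. Of 10 other genes of the Serpina3 cluster, 2 were measured, Serpina3a and Serpina3b, both under 69.2 on every array, with 0 called.

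Other acute phase proteins included 3 genes shared by DiBA and BA, Steap4, Orm3 and Cp, and 0 high in DiBA alone. Of 26 listed, 23 were measured and 15 of these lay under 69.2 on all 3 arrays. In DiBA against fibroblasts 3 were called higher and 1 lower, in BA 4 higher and 2 lower, and in DiBA against BA 2 higher and 0 lower, each with a median of 0. Steap4, a metalloreductase of adipocytes, was 86.4-fold above fibroblasts in DiBA and 91.7-fold in BA, or 31.4-fold and 33.3-fold with low values raised. Cp, which encodes the copper carrier ceruloplasmin, was 5.79-fold and 6.46-fold higher. Ptx3, a pentraxin, and Il1rn, the interleukin-1 receptor antagonist, were the 2 higher in DiBA than in BA, at 3.12-fold (2.23-fold with low values raised) and 2.83-fold, but neither was above fibroblasts. Ptx3 read 485 in fibroblasts, 156 in DiBA and 49.2 in BA, and Il1rn 241, 231 and 81.3, so their order differed from that of Lcn2.

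Of 18 other lipocalin genes, 17 were measured, and 11 of these lay under 69.2 on all 3 arrays. Among the 6 bright enough for a call, 4 were called higher than fibroblasts in DiBA and in BA. Between DiBA and BA, 0 of the 6 differed by 2-fold. Over all genes tested, 14.7% were called higher than fibroblasts in DiBA, 16.3% in BA, and 1.75% higher in DiBA than in BA. Rbp4, the retinol carrier, was 29.1-fold higher in DiBA and 33.0-fold in BA. Apod was 3.28-fold and 3.33-fold higher, and C8g and Orm3 made up the 4. The medians of the 17 were 0 in all 3 comparisons, but 10 of the 17 held identical values in DiBA and BA.

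Of 22 complement components measured beside Cfb, 9 were shared by DiBA and BA and 8 lay under 69.2 on all 3 arrays. Of the 22, 10 were called higher and 2 lower in DiBA than in fibroblasts (median 0.56), 10 and 2 in BA (median 0.68), and 0 either way between DiBA and BA (median 0). With low values raised to 69.2, 9 were called higher in BA. C4b, of the classical pathway, was 28.2-fold higher in DiBA and 23.7-fold in BA, or 19.3-fold and 16.2-fold with low values raised. C7, a part of the membrane attack complex, was 19.1-fold and 23.8-fold higher, or 7.17-fold and 8.95-fold with low values raised. C1s1, a protease of the first component, was 13.1-fold and 11.4-fold higher, but its fibroblast intensity was 18.1, and with low values raised the folds were 3.57 and 3.12. C4b and C1s1 lay past BA, with positions of 1.20 and 1.16. Masp1, a lectin pathway protease, was 7.31-fold lower in DiBA and 9.26-fold lower in BA, and the scavenger collectin Colec12 2.03-fold and 3.19-fold lower.

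C1qa, C1qb and C1qc, the recognition subunits that macrophages make, were among the higher genes, with C1qb 5.68-fold higher in DiBA and 6.07-fold in BA. Macrophage markers were higher beside them: of 10, 8 were called higher than fibroblasts in DiBA and 7 in BA, 0 lower and 0 either way between DiBA and BA. Their summed intensity was 1487 in fibroblasts, 4058 in DiBA and 3874 in BA. With each array centred on its median, Tyrobp was no longer among the 8. With low values raised to 69.2, 7 were called in DiBA and 6 in BA. The part of these cells in the member values was not tested.

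Of 16 complement regulators and receptors measured, 5 were called higher in DiBA than in fibroblasts and 3 in BA, with 0 lower, and 4 and 3 with low values raised to 69.2. Serping1, the C1 inhibitor, was 4.86-fold and 5.26-fold higher and Cd59a, which blocks the membrane attack complex, 5.73-fold and 6.34-fold. Clu, which encodes clusterin, and Cd55, which encodes decay accelerating factor, were the 2 called higher in DiBA than in BA, and both belonged to the class high in DiBA alone. Clu read 173 in fibroblasts, 634 in DiBA and 280 in BA, and Cd55 82.8, 288 and 137. Cd55 was just past the threshold at 1.07 and missed it at 0.99 with centred arrays.

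Receptors and partners of the members showed no common direction. Of 14 measured, 4 were called higher and 2 lower in DiBA than in fibroblasts, 3 and 3 in BA, and 1, Mmp9, higher in DiBA than in BA, with medians of 0.02, 0.02 and 0. Slc22a17, a receptor proposed for lipocalin 2, was listed at the same 212 on all 3 arrays, as were 33.4% of all probe sets at their own values. DiBA and BA held identical values for 47.3% of probe sets, so such a tie, or a list median of 0, is no measure of how alike the samples were. Lrp2, the megalin receptor that takes up lipocalin 2 in kidney, read 113 in fibroblasts, 30.7 in DiBA and 33.7 in BA, and with low values raised to 69.2 it was lower by 1.63-fold in both and no longer called. Cd163, the macrophage receptor for haptoglobin, read 31.7, 121 and 148, and with low values raised it was 1.74-fold higher in DiBA, under the threshold, and 2.12-fold in BA. Cd14, the partner of Lbp, was 2.25-fold and 2.41-fold higher, and Tlr4 read 187 in fibroblasts, 267 in DiBA and 251 in BA. Lrp1, at -0.97 in DiBA minus fibroblasts, passed the threshold under both other scalings.

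Inflammatory signalling was described by 3 lists, of lipopolysaccharide and NF-kappaB, of interleukin-1, tumour necrosis factor and interleukin-17, and of interleukin-6 and STAT3. Of 20 lipopolysaccharide and NF-kappaB signalling genes measured, 2 were called higher in DiBA than in fibroblasts (Irak2 at 3.17-fold and Irak3 at 2.11-fold), 1 in BA (Irak2 at 3.61-fold), and 0 between DiBA and BA, with medians of 0. Of 15 interleukin-1, tumour necrosis factor and interleukin-17 ligands and receptors listed, 13 were measured, all but Il1r1 and Il1rl1. Of the 13, 6 lay under 69.2 on all 3 arrays. Over all genes tested, 14.7% were called higher than fibroblasts in DiBA, 16.3% in BA, and 1.75% higher in DiBA than in BA. Among the genes of this list bright enough for a call, 0 of 6 were called in DiBA against fibroblasts, 1 of 7 in BA and 0 of 7 between DiBA and BA. The 1 was Il1r2, which read 30.6 in fibroblasts, 67.7 in DiBA, just under the level, and 78.5 in BA, and 0 were called in BA with low values raised. Il1b, Il6 and Tnf lay below 69.2 on every array.

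Of 16 genes of the interleukin-6 family and STAT3 signalling, 1 was called higher in DiBA, Cntfr at 6.62-fold, and in BA 1 was higher, Cntfr at 7.90-fold, and 2 lower. The lower ones were Osmr, the oncostatin M receptor, at -2.73 and Il6st, the shared signalling receptor, at -1.21. Osmr read 1401 in fibroblasts, 778 in DiBA and 210 in BA and was the 1 gene of this list called higher in DiBA than in BA, 3.70-fold. Socs3, a feedback target of STAT3, read 122, 92.4 and 80.7 in the same order. Under quantile normalization Lifr also passed the threshold against fibroblasts, in DiBA and in BA.

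Of 6 C/EBP genes measured, Cebpa and Cebpb were called higher in DiBA and in BA than in fibroblasts. Cebpb, whose product was first described as an activator of interleukin-6 and acute phase genes, read 136 in fibroblasts, 711 in DiBA and 295 in BA. Its DiBA value was 2.40-fold that of BA, and so it shared the graded pattern of Lbp. A link between Cebpb and the members was not tested. Cebpa was 18.5-fold and 21.7-fold above fibroblasts, and Cebpd lay below 69.2 on all 3 arrays.

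Of 10 glucocorticoid response genes, 3 were called higher and 1 lower than fibroblasts in DiBA and in BA, with medians of 0.71 and 0.78, and 0 differed between DiBA and BA (median -0.16). Pdk4 was 61.3-fold and 66.0-fold higher, Hsd11b1, which regenerates active glucocorticoid, 21.7-fold and 25.1-fold (8.78-fold and 10.1-fold with low values raised), Zbtb16 2.46-fold and 2.82-fold, and Dusp1 2.64-fold and 2.09-fold lower. Tsc22d3 passed the threshold in BA under quantile normalization, at 1.01.

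**Figure D4:**
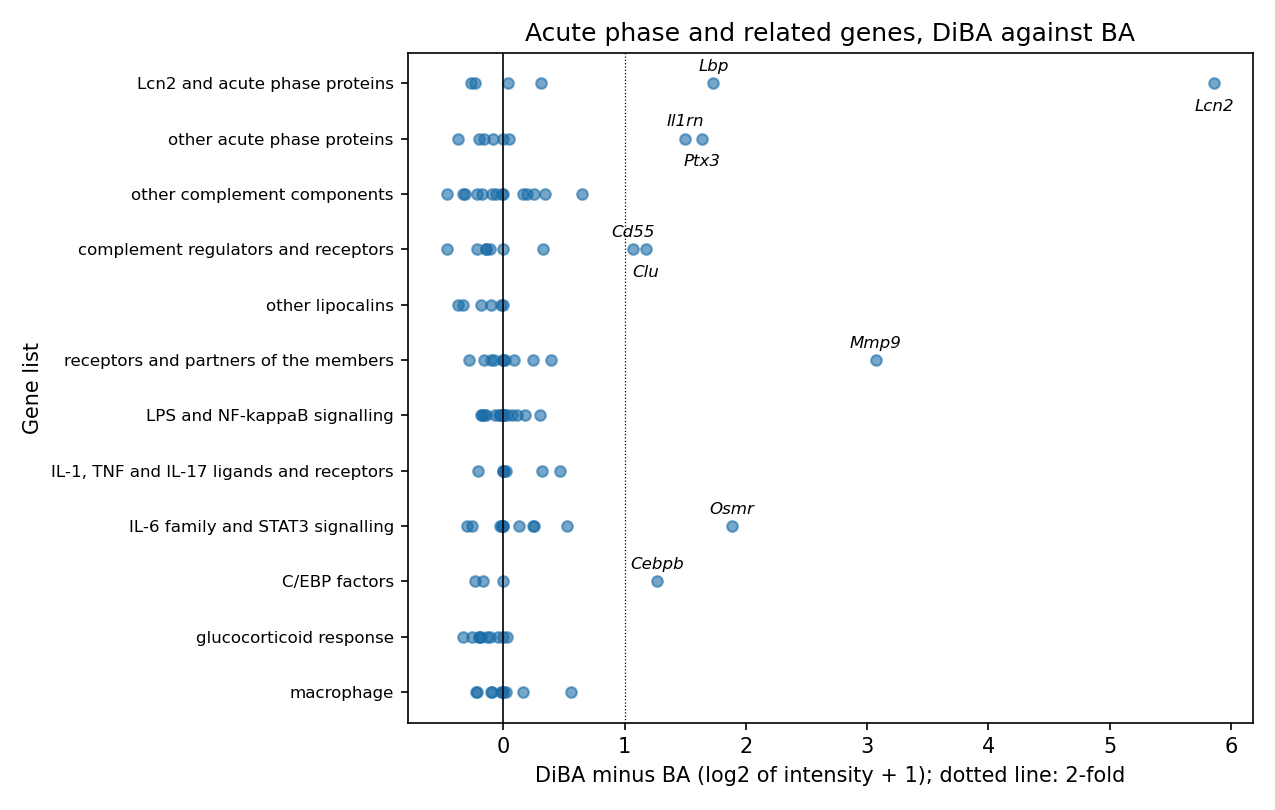
DiBA minus BA (x axis, log2 of intensity + 1) for the genes of each list (rows) above the level filter on either array, 1 point a gene, with the names of those at least 2-fold higher in DiBA. Lcn2 at 5.86 and Mmp9 at 3.07 stand farthest to the right. No gene lies at or left of -1, and over all 11076 genes tested 0 were called lower in DiBA.

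Cell types that make these proteins in quantity were looked for through their markers. All 14 neutrophil markers, genes of the cells whose granules store lipocalin 2, lay between 9.51 and 57.4 on the 3 arrays, below 69.2, with summed intensities of 386 in fibroblasts, 408 in DiBA and 402 in BA. All 12 hepatocyte markers lay between 8.64 and 67.2, with sums of 436, 461 and 464. Of 8 epithelial markers, 5 lay under 69.2 on all arrays, 2 were lower than fibroblasts in DiBA and 1 in BA, and the sums were 578, 335 and 351. Identical values on all 3 arrays were held by 8 of the 14 neutrophil, 9 of the 12 hepatocyte and 4 of the 8 epithelial markers. Sums that rest on such ties are no measure of how alike the samples were. Endothelial markers (8 of 8) and skeletal muscle markers (8 of 8) were called higher than fibroblasts in DiBA and in BA, with sums of 520, 3080 and 3677 for the former and 1035, 12065 and 13830 for the latter. Between DiBA and BA, 0 of the 16 differed by 2-fold. With centred arrays 6 of the 8 endothelial markers remained called in DiBA. The part of these cells in the member values was not tested.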

How the data were processed

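Total RNA of 3 samples was hybridised to 1 single-colour Affymetrix array each. The authors deposited 1 linear intensity per probe set, and the submitters' processing notes name Affymetrix Expression Console; how it summarized, background-corrected and normalized them is not given in the sources used here. Array medians lay between 67.7 and 71.5, so the intensities were taken as normalized. On all 3 arrays 9677 of the 28943 probe sets (33.4%) held exactly the same value, and 0 of the member probe sets did, on any pair of arrays. DiBA and BA were identical for 47.3% of probe sets, and of 11076 genes 194 were called higher and 0 lower in DiBA. How these ties and this one-sided count arose is not given. Whether the 3 arrays are independent measurements was not tested.

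The platform table gave 21789 probe sets 1 symbol. Log2(intensity + 1) values were averaged per gene with pandas 2.3.3, and the calling steps were tested on simulated data. With 1 array per group no test was possible, and the number of arrays limits precision. Genes and lists were chosen with earlier results of these data known. Members were always named, with up to 4 called genes of largest difference per list, the 6 genes nearest to Lcn2, and the 12 highest of the class high in DiBA alone. Other genes were named after their values were seen, as a member's receptor, relative or known regulator. Alternatives covered centring, quantile normalization, a pseudocount of 16, raised low values, the level filter, the highest probe set and a 4-fold threshold.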

Additional observations from a re-analysis of the deposited data

How the results depend on the processing

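Of 48 recomputed counts of members, 41 stayed within 1.5 times the reported one, and 0 of the called member differences turned sign under the scalings, the pseudocount of 16, the raised low values or the highest probe set. With a pseudocount of 16 or with a 75th percentile level filter, 2 members (Lcn2 and Lbp) were high in DiBA alone, and with no level filter 2 (Lcn2 and Saa3). The members of neither class numbered 1 with the pseudocount of 16 and 1 with no level filter. The 75th percentile filter left 3 members higher in BA than in fibroblasts, since Lbp and Cfb were then too dim there. At 4-fold, 1 member, Lcn2, was higher in DiBA than in BA. In DiBA minus BA, Lcn2 ranged from 5.55 to 5.86 and Lbp from 1.65 to 1.73. The scaling of linear positions was chosen after seeing the data and left 2 of 3 members with DiBA above BA. Over all genes, the class high in DiBA alone held 17 genes, 7 with the 75th percentile filter and 5 at 4-fold. The order of genes near Lcn2 with low values raised was also added after seeing the data. Signal over background limits Saa3, the folds of Lcn2, Orm1, Hp and Cfb over fibroblasts, and every other fold against an intensity under 69.2, and no alternative replaces the missing replicates.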
